A study of Caenorhabditis elegans with 16 samples.

Results

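The vitellogenin genes vit-1 to vit-6 are the 6 genes of Caenorhabditis elegans that encode the yolk proteins. They were followed here in small RNA libraries, as every 1 kb bin of the deposited table that overlapped one of them in the WBcel235 annotation. Bins were assigned by gene position alone, but the genes were taken up with earlier results of these data known. They are 6 of 46890 annotated genes and 37 of 100257 bins. Of the 37 bins, 25 lay wholly inside a vit gene and 36 averaged 5 RPKM or more over the libraries and could be tested. The bin left untested was the last of vit-1 (chromosome X, 7733001 to 7734000), which also holds part of set-12.

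In hermaphrodites the vit genes are transcribed in the adult intestine. The yolk proteins are secreted into the body cavity and taken up by growing oocytes through the receptor RME-2, where they feed the embryo. Small RNAs over such a gene can be secondary siRNAs made on its mRNA by RNA-dependent RNA polymerases, or pieces of the mRNA itself. HRDE-1 is a germline Argonaute that carries siRNAs into the nucleus, and SET-32, MET-2 and SET-25 are SET domain proteins of the histone methyltransferase family that act in heterochromatin.

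The study asked, by its title, how SET-32 contributes to the start of heritable nuclear RNAi. Small RNA was taken from young adult hermaphrodites and cloned by a method that does not need a 5′ monophosphate. Its libraries cover 4 genetic backgrounds, set-32(ok1457), set-32(red11), met-2(n4256) set-25(n5021) and the wild type, each in 4 states of hrde-1: never mutant, mutant for hrde-1(tm1200), repaired to hrde-1(+R) for a few generations, and repaired for 20 generations (F20). The early repaired libraries were F8 in set-32(ok1457) and F5 in the other 3 backgrounds, and the never mutant library of the wild-type background was N2. Each of the 16 genotypes has 1 library and no replicate, so p-values below measure the spread between backgrounds, alleles or states. How many animals or independent lines stood behind a library is not given in the sources used here.

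A single read was worth 1.46 to 6.33 RPKM in a bin, as read from the spacing of the low values, so the bins of a library held 142.2 to 497.8 times 1000 reads, and 3 reads were worth 4.37 to 18.99 RPKM. The summed RPKM of all bins came to 90.0 to 96.7% of 1000000 in 5 libraries, called the libraries of high table total below, and to 67.7 to 80.5% in the other 11. These were the never mutant and the mutant library of each set-32 allele, together with the F5 library of met-2 set-25. All 5 carry the library-name prefix SG0717, as do 7 of the other 11. Small RNAs over met-2 were lower in each of the 4 libraries with the met-2 set-25 mutations (52.1 to 77.4 RPKM) than in any other library (151 to 390 RPKM). Over hrde-1, set-32 and set-25 the libraries with and without the named mutation overlapped, and the bases lost in the alleles are not given in the labels, so small RNAs there do not check those genotypes.

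In 11 libraries small RNAs covered all 6 vit genes along their whole length, and the signal fell away at the gene ends. The genes vit-1 to vit-5 lie on chromosome X and vit-6 lies on chromosome IV. By WBcel235 coordinates vit-1 (WBGene00006925) spans X:7727889-7733168 on the plus strand, vit-2 (WBGene00006926) X:5101042-5106169 on the plus strand, and vit-5 (WBGene00006929) X:3403471-3408603 on the plus strand. On the minus strand lie vit-3 (WBGene00006927, X:3567355-3572549) and vit-4 (WBGene00006928, X:3558769-3563965), a pair of neighbours less than 4 kb apart. The sixth gene, vit-6 (WBGene00006930), spans IV:8261157-8266459 on the plus strand. All 6 are annotated as protein coding, measure 5128 to 5303 bp, have 5 to 8 exons and are 94.8 to 96.4% exonic by length. The 12 end bins also hold sequence outside the genes.

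Within the 11 libraries outside the high-total set, every inner bin of a gene held signal from the 5′ to the 3′ end, at levels that differed between bins. Over vit-6 the medians of the 11 libraries were 335, 413, 421, 550 and 559 RPKM in the first 5 bins and 88.2 RPKM in the sixth, which the gene fills only in part. Over vit-2 the first 5 bins had medians of 302, 252, 297, 279 and 438 RPKM. In both of these genes the fifth bin was the highest, and the first bin begins outside the gene. No vit gene had its signal confined to 1 end.

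The 53 bins within 5 kb outside the genes held little. Only 6 of them passed the filter for testing, and 14 reached 5 RPKM in any library. The highest value was 47.9 RPKM, in N2, in a bin 2 kb upstream of vit-6 that overlaps K07H8.7. The bin just upstream of vit-1, which overlaps spp-14, had at most 0.02 RPKM in the 5 libraries of high table total and a median of 14.7 RPKM in the other 11. The authors' table marks some bins as GRH, GRTS or misanotated without expanding these names, and 0 of the 37 vit bins carried any of these marks. The share of all bins with each mark was not counted, so this count does not set the vit bins apart.

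**Figure D1:**
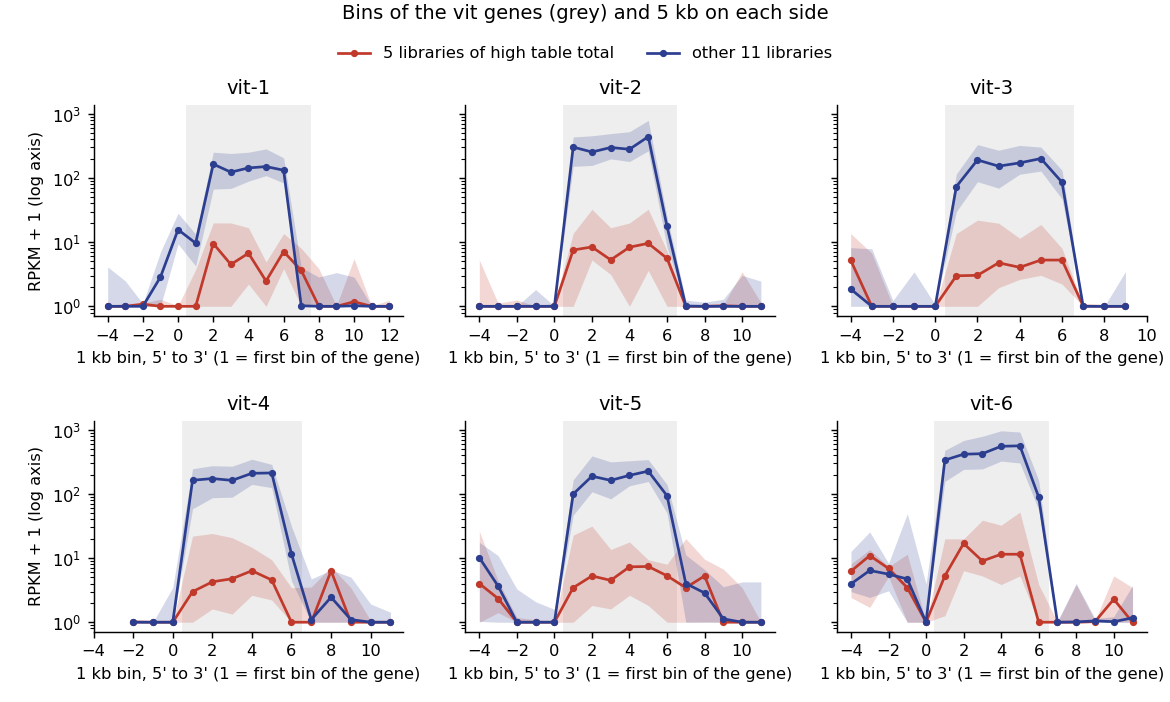
Small RNA level (RPKM + 1, log axis) in each 1 kb bin of a vit gene (grey band) and up to 5 kb outside it, ordered from 5′ to 3′ with bin 1 as the first bin of the gene; lines are medians and shaded areas the lowest to highest library, for the 5 libraries of high table total and the other 11. In the other 11 libraries the level is high inside each gene and mostly close to 1 outside it, and over the inner bins the 2 sets of libraries do not overlap.

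Small RNAs over the vit genes were close to the counting limit in 5 libraries and abundant in 11. The sum over the 37 bins was 157 RPKM in set-32(ok1457), 137 in set-32(ok1457); hrde-1(tm1200), 9001 in set-32(ok1457); hrde-1(+R) F8 and 7439.7 at F20. In the set-32(red11) background the same 4 states had 136, 172, 5190.1 and 8282 RPKM. The sums in met-2 set-25 were 7416 RPKM (never mutant), 8698 RPKM (mutant), 615 RPKM (F5) and 6339 RPKM (F20). N2 had 7697 RPKM, hrde-1(tm1200) 12422, hrde-1(+R) F5 4411 and hrde-1(+R) F20 4728. The 5 low libraries are those of high table total, and their vit sums did not overlap those of the other 11.

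By the read values above, the vit genes held about 31.9 to 97.1 reads in each of the 5 libraries of high table total and about 1590.3 to 5728 reads in each of the other 11. That was 0.0141 to 0.0683% of the table in the 5 libraries and 0.588 to 1.65% in the other 11. Among the 7 of these 11 that share the prefix SG0717 with the 5, the vit sums were 4411 to 9001 RPKM, so the low libraries stood apart within 1 prefix. Inside the 11 libraries the vit sum had no clear relation to the table total (Pearson r of −0.24 and Spearman rho of −0.31 on the log2 sum, a description over 11 libraries of different genotypes). Whether the table total and the vit level differ for 1 reason was not tested.

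**Figure D2:**
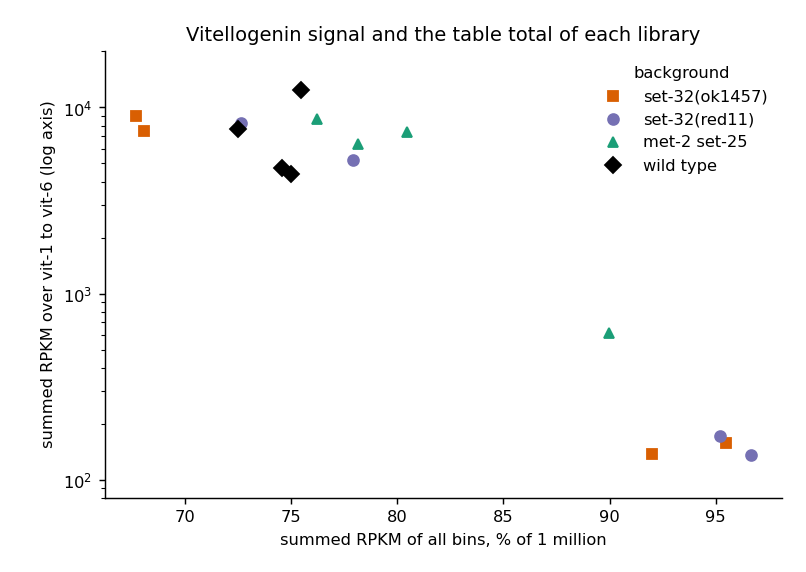
Each library's summed RPKM over vit-1 to vit-6 (log axis) against the summed RPKM of all its bins as a percentage of 1000000, with the 4 backgrounds as separate symbols. The 5 libraries at 90.0% or more have vit sums of 136 to 615 RPKM, and the other 11 have 4411 RPKM or more.

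The largest share of vit small RNAs lay over vit-6, whose protein is cleaved to give the smaller yolk polypeptides. In the set-32(ok1457) background vit-6 had 45.9 RPKM in the never mutant, 35.2 in the mutant, 2673 at F8 and 2196 at F20. In set-32(red11) it had 44.2, 45.0, 1526 and 2437 RPKM in the never mutant, the mutant, F5 and F20. The met-2 set-25 libraries had 2394, 2779, 158 and 1801 RPKM in the same order of states, and the wild-type background had 2748 (N2), 3976 (mutant), 1343 (F5) and 1521 (F20) RPKM. In both set-32 backgrounds the 2 repaired libraries lay far above the never mutant and mutant libraries, whereas in the wild-type background they lay below them. The wild-type repaired libraries also carry another library-name prefix than N2 and the wild-type mutant.

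Counting error alone was wide in the low libraries. The 45.9 RPKM of vit-6 in set-32(ok1457) were about 16 reads, with an exact Poisson 95% interval of 26.3 to 74.6 RPKM, and the 4 intervals of the never mutant and mutant set-32 libraries overlapped. In met-2 set-25 hrde-1(+R) F5 the 158 RPKM of vit-6 were about 25 reads, with an interval of 102 to 234 RPKM. That library lay above the other 4: its sum over all vit genes had an interval of 498 to 749 RPKM, and the upper bounds of the 4 set-32 libraries were at most 218 RPKM. These intervals cover counting error only.

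The second highest gene was vit-2, which with vit-1 encodes a closely related pair of large yolk polypeptides. It had 31.6, 32.9, 28.1, 32.4 and 117 RPKM in set-32(ok1457), its hrde-1 mutant, set-32(red11), its hrde-1 mutant and met-2 set-25 F5, against 966 to 2711 RPKM (median 1539) in the other 11 libraries. Its relative vit-1 had 11.5, 23.4, 28.2, 28.5 and 73.2 RPKM in the same 5 libraries, against 477 to 1236 RPKM (median 712) in the other 11. The ratio of the medians, other 11 libraries over the 5, was 47.5 for vit-2 and 25.3 for vit-1.

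The other large yolk polypeptides come from vit-3, vit-4 and vit-5, which are near copies of each other. In the 5 libraries of high table total, listed in the same order, vit-3 had 18.97, 13.7, 11.8, 23.4 and 85.9 RPKM, against 494 to 1432 RPKM (median 896) in the other 11. For vit-4 these values were 19.6, 11.6, 14.2, 18.2 and 85.9 RPKM, against 509 to 1417 RPKM (median 890.1). For vit-5 they were 29.2, 19.8, 9.28, 24.5 and 95.2 RPKM, against 589 to 1649 RPKM (median 934). The 2 sets of libraries did not overlap for any vit gene, and the ratio of the medians, other 11 over the 5, was 47.2 for vit-3, 49.04 for vit-4, 38.2 for vit-5 and 53.2 for vit-6. The share of all genes that separate the 2 sets in this way was not counted, so this separation has no background. The 10 genes of most similar pattern given below also separate them, col-119 with at most 6.69 RPKM in the 5 and at least 166 RPKM in the other 11. They were picked for following the vit genes over these same libraries, so they do not supply that background.

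**Figure D3:**
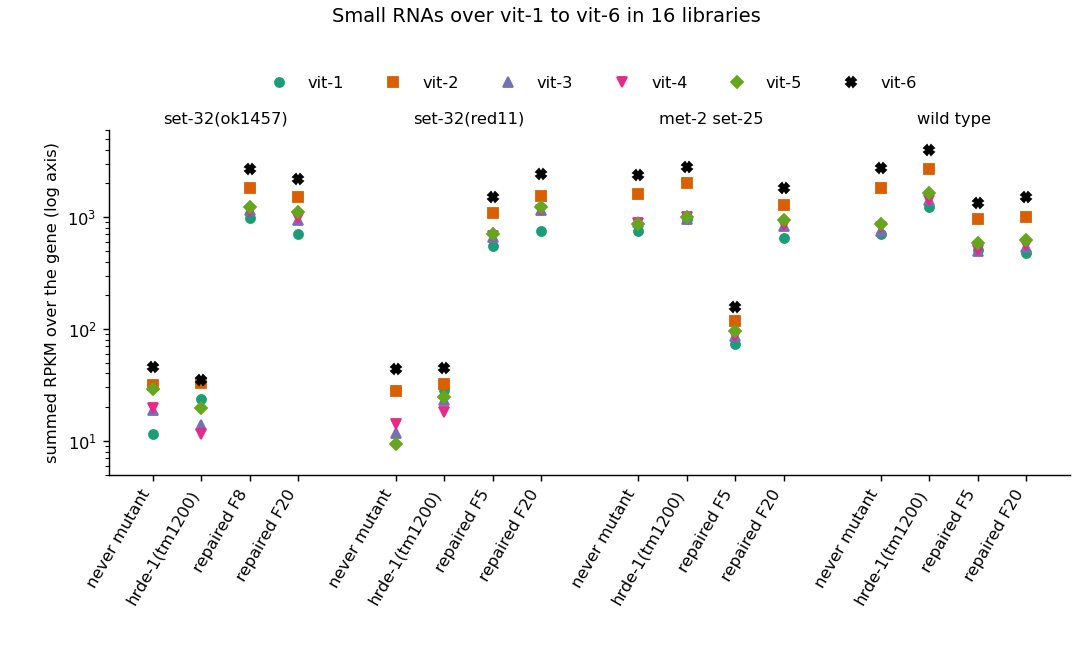
Summed RPKM over each vit gene (log axis) in the 16 libraries, grouped by background and ordered by hrde-1 state; each point is 1 library. All 6 genes move together from library to library, and the 4 never mutant and mutant set-32 libraries with met-2 set-25 F5 lie lowest.

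Read per kilobase of gene, the order of the 6 genes was nearly fixed in the 11 libraries. The median level per kb was 452 RPKM for vit-6, 300.0 for vit-2, 182 for vit-5, 172 for vit-3, 171 for vit-4 and 135 for vit-1. In 11 of 11 libraries vit-6 exceeded vit-2 and vit-2 exceeded vit-5, and in 10 of 11 vit-5 exceeded vit-3, vit-5 exceeded vit-4 and vit-3 exceeded vit-1. The neighbours vit-3 and vit-4 could not be ordered: vit-4 was the higher in 7 of 11, and their per-kb ratio vit-3 over vit-4 was 0.929 to 1.018.

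As shares of the vit total, the medians over the 5 libraries of high table total and over the other 11 were close for most genes. The share was 26.2% in the 5 and 30.5% in the 11 for vit-6, 20.2% and 21.2% for vit-2, 14.5% and 13.4% for vit-5, 12.1% and 12.1% for vit-3, and 10.6% and 12.002% for vit-4. The share of vit-1 was 16.6% in the 5 libraries and 10.2% in the other 11. With at most about 11.6 reads of vit-1 in each of the 5 libraries, counting error in that share is large.

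How reads of the near copies were divided can be seen in the low libraries. Among bin values of up to about 6 reads in the 5 libraries of high table total, 24 of 25 over vit-6 were whole reads within 0.05 of a read. Over vit-1 and vit-2, 27 of 52 were whole and 20 lay midway between whole reads, within the same tolerance. Over vit-3, vit-4 and vit-5, 9 of 81 were whole, 12 lay midway, 32 lay at a whole number plus 1/3 or 2/3 of a read, and 20 at a whole number plus 1/6 or 5/6.

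Such steps appear when a read with several matches is divided among them, and the way this was done is not given in the sources used here. Levels of vit-3, vit-4 and vit-5 are therefore not separate measurements, nor are those of vit-1 and vit-2 in full. In met-2 set-25 F5 vit-3 and vit-4 even had the same sum, 85.88 RPKM. The gene without such steps, vit-6, showed the same low and high libraries as the other 5.

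Pairwise correlations among the 6 genes, on log2 sums, were 0.975 to 0.999 over all 16 libraries. Inside the 11 libraries alone they were 0.868 to 0.997 with a median of 0.912. These values describe genes that share reads and library depth.

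In a ranking of all 100257 bins within each library, vit bins were among the highest in the 11 libraries. The top 1%, the first 1003 bins, held 0 of the 37 vit bins in each of the 5 libraries of high table total and 17 to 32 of them (median 28) in each of the other 11. The best vit bin ranked 3586 to 16438 in the 5 libraries. It ranked from 8 in hrde-1(tm1200) to 174 in hrde-1(+R) F5 among the other 11.

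The loss of hrde-1 function was compared over the 4 backgrounds. The sum over the vit genes was 0.872 times that of the never mutant in the set-32(ok1457) mutant, 1.27 times in set-32(red11), 1.17 times in met-2 set-25 and 1.61 times in the wild type. In met-2 set-25 all 6 genes were higher in the mutant, by 1.07 to 1.28 times, and in the wild type all 6 were higher, by 1.45 to 1.91 times, although the wild-type pair carries different library-name prefixes. In the test over all bins, limma on log2(RPKM + 1) with background as a block and Benjamini-Hochberg adjustment, 0 of 36 vit bins passed an adjusted p of 0.05, against 1.14% of all 25407 bins tested. At an unadjusted p under 0.05 there were 6, the adjusted p-values were 0.19 to 0.999, and the median log2 difference, mutant minus never mutant, was 0.13 for the vit bins and 0.05 for all bins. The share of all bins at an unadjusted p under 0.05 was not counted in any comparison. Vit bins also move together, so such unadjusted counts have no background here or below. Without the wild-type background the vit median was −0.12.

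After repair of hrde-1 the vit sums lay above those of the mutants in the set-32 backgrounds and below them in the others. Relative to its mutant, the vit sum was 65.9 times as high in the early repaired library (F8) of set-32(ok1457) and 30.2 times as high in that of set-32(red11) (F5). In met-2 set-25 and the wild type the early repaired libraries had 0.0707 and 0.355 times the sum of their mutants. At F20 the ratios to the mutant were 54.5 in set-32(ok1457), 48.2 in set-32(red11), 0.729 in met-2 set-25 and 0.381 in the wild type. Each set-32 pair shares a library-name prefix. The met-2 set-25 and wild-type pairs do not, since their repaired libraries carry SG0717 and their mutants SG0315. Prefix and background therefore cannot be told apart in these ratios.

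Averaged over the 4 backgrounds, neither repaired state passed the test against the mutant, and the early and F20 comparisons share their mutant libraries. For early repaired minus mutant, 0 of 36 vit bins were called by limma and 0 had an unadjusted p under 0.05, against 0.0433% of all bins called. The median log2 difference was 1.36 for the vit bins and −0.21 for all bins. For F20 repaired minus mutant, 0 were called and 5 had an unadjusted p under 0.05, against 0.134% of all bins called, with medians of 2.39 and −0.21. Neither direction was the same in every background. For F20 repaired minus mutant the vit median was −0.89 with the table-total split as a term (13 bins at an unadjusted p under 0.05). It was also −0.89 without the 5 libraries of high table total (25 bins). These are the same estimate, from the met-2 set-25 and wild-type pairs alone, because each set-32 pair lies across the split. For early repaired minus mutant it was 0.18 with that term and −0.20 without the set-32(ok1457) background.

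Against the never mutant state the picture was alike. The vit sum of the early repaired library was 57.5 times that of the never mutant in set-32(ok1457) and 38.2 times in set-32(red11), against 0.0829 times in met-2 set-25 and 0.573 times in the wild type. For F20 the ratios were 47.5, 60.98, 0.855 and 0.614 in the same order of backgrounds. Here too only the set-32 pairs share a library-name prefix. In limma's test 0 of 36 vit bins were called in either comparison, as were 0% of all bins, and 0 (early repaired) and 23 (F20) vit bins had an unadjusted p under 0.05. The share of all bins at that unadjusted level was not counted. The vit median was 1.60 for early repaired and 2.54 for F20, each minus never mutant. For F20 it was −0.43 both with the table-total term and without the 5 libraries. That is the same estimate, from the met-2 set-25 and wild-type pairs alone. For early repaired the vit median was 0.49 with the term.

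The vit sum at F20 was 0.827 times that of the early repaired library in set-32(ok1457), 1.60 times in set-32(red11), 10.3 times in met-2 set-25 and 1.07 times in the wild type. The step in met-2 set-25, F20 over F5, lies across the split in table total. In limma's test 0 of 36 vit bins were called, as were 0% of all bins, and 2 had an unadjusted p under 0.05.

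The direct question for SET-32 is whether the change at repair differs between set-32 and other backgrounds. The contrast took the mean of the early and F20 repaired libraries minus the mutant in the 2 set-32 backgrounds, less the same in met-2 set-25 and the wild type. In limma's fit over all 16 libraries 33 of 36 vit bins were higher and 0 lower at an adjusted p under 0.05, against 1.11% of all 25407 bins called higher (282 bins, and 156 lower). The median log2 difference of differences was 7.17 for the vit bins and −0.28 for all bins.

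For single genes this difference of differences, fitted to the summed RPKM by limma, was 7.65 ± 0.70 (SE) on the log2(RPKM + 1) scale for vit-6, with an adjusted p of 9.79e-05 over all genes. It was 7.59 ± 0.68 for vit-4, 7.36 ± 0.69 for vit-2, 7.30 ± 0.71 for vit-3, 7.09 ± 0.73 for vit-5 and 6.50 ± 0.74 for vit-1. All 6 bins of vit-3, vit-5 and vit-6 were called, and 5 of 6 tested bins of vit-1, vit-2 and vit-4. The 3 not called were end bins that a gene fills only in part: the first bin of vit-1 (2.81, adjusted p = 0.261), the last of vit-2 (2.74, adjusted p = 0.0973) and the last of vit-4 (4.79, adjusted p = 0.0998), all by limma.

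This result cannot be told apart from the split in table total or from library-name prefix. In met-2 set-25 and the wild type the repaired libraries carry another prefix than the mutants, and in the set-32 backgrounds the same one. All 4 never mutant and mutant set-32 libraries have a high table total and all 4 repaired set-32 libraries do not. With that split as a further term, limma called 0 of 36 vit bins (25 at an unadjusted p under 0.05) and 0 of all 25407 bins, with a vit median of 3.31 and adjusted p-values of 0.145 to 0.945. The size of that term rests on the met-2 set-25 F5 library alone, since in the set-32 backgrounds the split coincides with repair. That library also held the fewest reads in bins. Without the set-32(ok1457) background 15 of 36 bins were called.

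**Figure D4:**
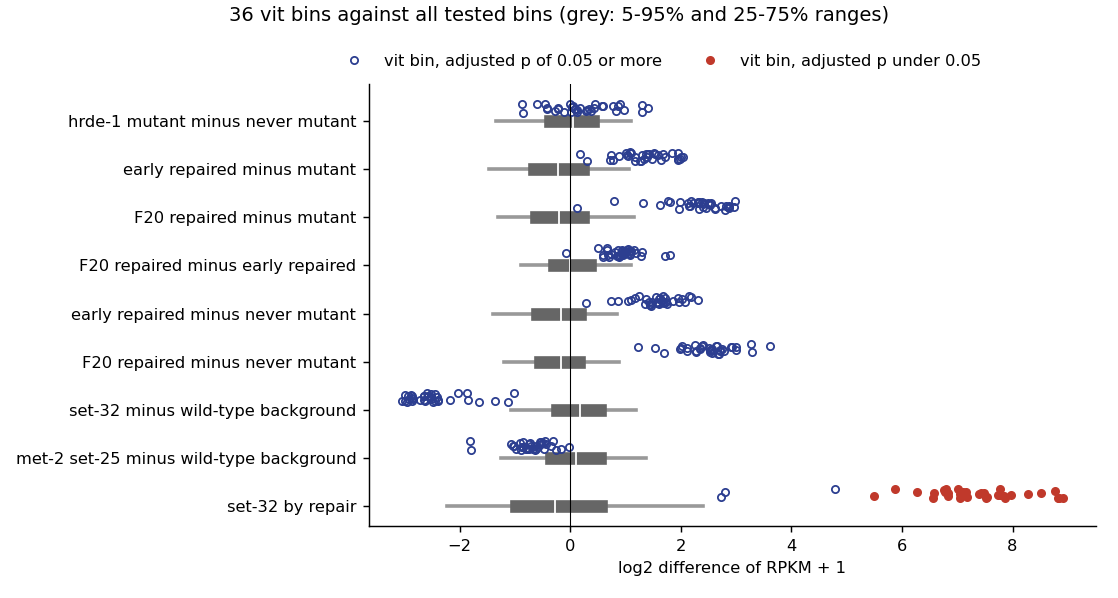
Log2 differences of RPKM + 1 for the 36 tested vit bins (circles, filled where the adjusted p is under 0.05) in each comparison, with the 5 to 95% and 25 to 75% ranges of all tested bins as thin and thick grey bars. Filled circles, 33 of 36, appear in the comparison of repair between set-32 and the other backgrounds and in no other.

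Taken over all states, the set-32 backgrounds were compared with the wild type with state as a block. The set-32(ok1457) library had 0.0203 times the vit sum of N2 in the never mutant state, 0.011 times that of the wild-type mutant, 2.04 times at early repair (F8 against F5) and 1.57 times at F20. For set-32(red11) the ratios to the wild type were 0.0176, 0.0138, 1.18 and 1.75. In limma's test 0 of 36 vit bins were called, as were 0% of all bins, 29 had an unadjusted p under 0.05, and the median log2 difference was −2.54 for the vit bins and 0.17 for all bins. The share of all bins at that unadjusted level was not counted. The sign of the vit median turned with the libraries used: it was 0.64 with the table-total split as a term (6 bins at an unadjusted p under 0.05), 0.64 without the 5 libraries of high table total (19 bins) and 0.64 over libraries that share a name prefix. All of these rest on the repaired libraries alone, so they are the same estimate and not separate checks.

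The met-2 set-25 libraries had 0.963 times the wild-type vit sum in the never mutant state, 0.700 times in the mutant, 0.139 times at F5 and 1.34 times at F20. In limma's test against the wild type 0 of 36 vit bins were called, against 0.287% of all bins, and 0 had an unadjusted p under 0.05. The median log2 difference was −0.72 for the vit bins and 0.11 for all bins, and the vit median was −0.02 with the table-total term.

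The 2 set-32 alleles were not in 1 order after repair. The ratio of set-32(ok1457) over set-32(red11) was 1.73 in the early repaired libraries, which are F8 and F5, with all 6 genes 1.69 to 1.80 times as high in set-32(ok1457). At F20 it was 0.898, with all 6 genes lower in set-32(ok1457).

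When only pairs sharing a library-name prefix were used, an alternative added after the data were seen, 33 of 36 vit bins were called higher by limma in each of 4 comparisons. The backgrounds were 0.248% of all bins higher for early repaired minus mutant, 0.779% for F20 repaired minus mutant, 1.07% for early repaired minus never mutant and 0.779% for F20 repaired minus never mutant. These pairs are those of the 2 set-32 backgrounds, each lies across the split in table total, and the fit of 4 libraries has 1 residual degree of freedom.

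Genes of the yolk pathway other than the vit genes had overlapping summed levels in the 2 sets of libraries. The list held the yolk receptor gene rme-2, the endocytosis genes rme-1, rme-8 and chc-1, the lipoprotein secretion gene dsc-4, and 15 regulators of vit transcription or yolk level. All 20 genes were found, with 239 bins of which 58 were tested, and 0 of the 58 were called by limma in any of the 9 comparisons. With 0 to 1.14% of all bins called in 8 of the comparisons and 1.11% called higher in that of repair, this count is near the background. Their summed level was 1607 to 2507 RPKM in the 5 libraries of high table total and 1334 to 1900.2 RPKM in the other 11, a ratio of medians, other 11 over the 5, of 0.821.

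Of the 20 genes 15 had the higher median in the 5 libraries and 5 the lower. The share of all genes in each direction was not counted, so these counts do not set the yolk pathway apart. The table total itself is higher in the 5 libraries. Over the 4392 genes compared with vit below, the median r was −0.42. Some medians lay near or under 1 read, which was worth 1.46 to 6.33 RPKM. In the 5 and the other 11, elt-2 had 2.18 and 0.69 RPKM, and pqm-1 had 0.17 and 3.72 RPKM. The yolk receptor gene rme-2, expressed in oocytes, had a median of 278 RPKM in the 5 libraries and 229 RPKM in the other 11. The insulin receptor gene daf-2, whose signalling favours vit transcription, and daf-16, which encodes the FOXO factor restrained by it, had medians of 187 and 241 RPKM in the 5 libraries and 131 and 191 RPKM in the other 11. For unc-62, a homeodomain regulator of vit transcription, the medians were 28.6 RPKM in the 5 and 25.1 RPKM in the other 11. Among the 5 genes in the other direction, chc-1, the clathrin heavy chain gene, had medians of 195 RPKM in the 5 and 219 RPKM in the other 11, and dsc-4 had 9.37 and 15.1 RPKM.

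Markers of intestine, body wall muscle and hypodermis also had lower sums in the 5 libraries. The 17 intestine markers other than vit summed to 156 to 407 RPKM there and to 407 to 984 RPKM in the other 11, the met-2 set-25 F5 library (407.22) and hrde-1(+R) F20 (407.25) nearly meeting. The 12 body wall muscle markers summed to 165 to 410.1 RPKM in the 5 and 642 to 2533 RPKM in the other 11, and the 11 hypodermis markers to 41.7 to 57.3 and 480 to 1369 RPKM. Ratios of medians, other 11 over the 5, were 3.15, 4.74 and 14.1 for these 3 lists. Some members went the other way. Medians in the 5 and the other 11 were 49.8 and 38.5 RPKM for spl-1, 2.18 and 0.69 for elt-2, and 2.65 and 0.36 for elt-7 (intestine). They were 78.1 and 62.5 RPKM for unc-60 (muscle) and 13.3 and 8.87 RPKM for bli-2 (hypodermis). Every other member had a lower or equal median in the 5.

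The germline and neuron lists had ratios near 1. They were 0.775 for oocyte and germline markers, 1.22 for sperm markers and 0.868 for neuron markers, as ratios of medians, other 11 over the 5. Single libraries spread widely around these medians. Sperm sums were 140 RPKM, in set-32(ok1457), to 912 RPKM in the 5, and 330 to 1099 RPKM in the other 11. Neuron sums were 725 to 1678 RPKM, the latter in met-2 set-25 F5, and 597 to 1137 RPKM in the other 11. Of the intestine markers mtl-1 was listed at 0 in all 5 libraries of high table total and in 9 of the other 11, and mtl-2 in 4 of the 5 and 2 of the 11. The intestine protease gene cpr-1 had a median of 73.4 RPKM in the 5 and 94.95 RPKM in the other 11. In a whole-animal sample fewer cells of a tissue and less small RNA per cell cannot be told apart, and the part of either in the vit levels was not tested.

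In the comparison of repair between set-32 and the other backgrounds, limma called 7 of 20 intestine bins other than vit higher (act-5, asp-1, asp-3 and cpr-6), 14 of 34 muscle bins (act-4, lev-11, mup-2, unc-15, unc-27 and unc-54) and 7 of 11 hypodermis bins (bli-1, col-119, col-140 and col-19), against the 1.11% of all bins given above. It called 0 of 48 oocyte and germline, 0 of 21 sperm and 0 of 21 neuron bins, counts near that background. No bin of these 6 lists was called in the other 8 comparisons.

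**Figure D5:**
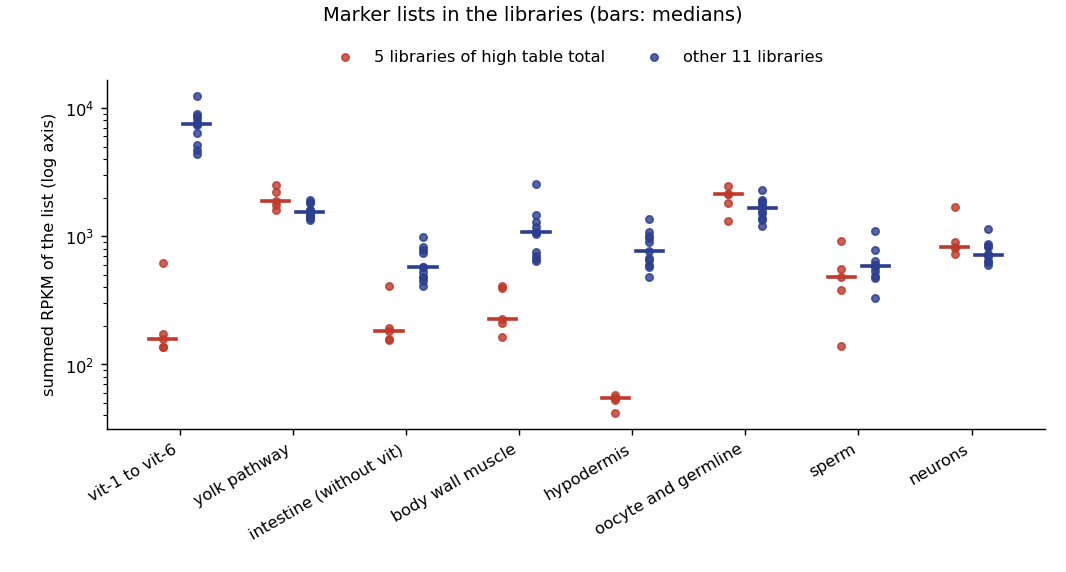
Summed RPKM (log axis) of the vit genes, the yolk pathway list and 6 marker lists in the 5 libraries of high table total (left of each pair) and the other 11 (right); points are libraries and bars medians. The vit genes show the widest gap between the 2 sets of libraries, medians of 157 and 7439.7 RPKM, followed by hypodermis, while the yolk pathway, germline, sperm and neuron lists overlap.

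The genes most like the vit genes were found by correlating log2(summed RPKM + 1) over the 16 libraries with the mean of the 6 vit genes, among 4392 protein-coding genes with a mean of at least 50 RPKM. The 10 highest were col-140 (r = 0.991), C39D10.7 (0.989), col-20 (0.988), col-119 (0.983), col-181 (0.982), ctsa-1.1 (0.979), cpl-1 (0.978), col-122 (0.978), far-2 (0.977) and col-179 (0.975). Inside the 11 libraries outside the high-total set their r was lower, from 0.598 for col-122 to 0.864 for C39D10.7. Of these 10, 6 are cuticle collagen genes of the col family, while cpl-1 encodes a cathepsin L protease and far-2 a fatty acid and retinol binding protein. Of the 4392 genes 52, or 1.18%, had r above 0.9, and the median r was −0.42.

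The ratio of medians, other 11 libraries over the 5, ran from 4.38 for cpl-1 to 103 for ctsa-1.1 among the 10 genes, and from 25.3 to 53.2 among the vit genes. Medians in the 5 libraries of high table total and in the other 11 were 10.01 and 309 RPKM for col-140, 4.26 and 159 RPKM for far-2, 0.67 and 68.8 RPKM for ctsa-1.1, and 35.8 and 157 RPKM for cpl-1. All points share library depth and the split in table total, so these correlations are a description, given with no p-value.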

How the data were processed

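The 16 small RNA libraries were grouped by the genotypes in their titles. The table deposited by the authors holds RPKM per 1 kb bin. Bowtie 0.12.7 was named, per the submitters' processing notes. The build of the genome, the reads that RPKM were scaled to and the treatment of reads with several matches were not given in the sources used here. A further 27 columns of the table matched no library and were not used. Bins were named by WBcel235 genes on either strand, so read strand, read length and overlapping end genes (such as unc-78, T27A10.5 or K07H8.8) are not separated.

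Because RPKM are not counts, limma 3.58.1 (R 4.3.3) was run on log2(RPKM + 1), two-sided, over 25407 bins averaging 5 RPKM or more, with Benjamini-Hochberg adjustment over all of them. The added 1 makes fold changes of low bins too small. On simulated data for hrde-1 mutant minus never mutant, over 25407 bins, 25% of changes of 2 and 70% of changes of 4 (log2) were recovered, with 3 false calls. These rates hold for the residual spread of that comparison and for independent bins. Recovery in the other comparisons, or for vit bins that move together, was not simulated. All 6 vit genes are named, with the 10 genes of most similar pattern and the members of preset lists with a call. The vit genes, lists and rules were chosen with earlier results of these data known. Alternatives changed the pseudocount, filter, scaling, bins, libraries and model terms.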

Additional observations from a re-analysis of the deposited data

Results flagged for a closer look

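In the met-2 set-25 background the F5 library stood apart from the other 3 for every vit gene. Among the 4 libraries of that background its value on the log2 scale lay farther from its nearest neighbour than Dixon's 95% critical value allows. Its levels were 73.2 RPKM for vit-1, 116.58 for vit-2, 85.88 for vit-3, 85.88 for vit-4, 95.18 for vit-5 and 158.15 for vit-6. The never mutant, mutant and F20 libraries had 1801 to 2779 RPKM for vit-6. The 4 libraries are different hrde-1 states and not replicates. Of 48 such sets of 4 examined, 6 were marked, and chance alone marks about 1 in 20. Because vit genes share reads and libraries, the 6 are not independent. The F5 library is also the only one of its background with a high table total, and the part of that total in its vit level was not tested.

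The change at repair differed between set-32 and the other backgrounds in 33 of 36 vit bins by limma's test of the difference itself. It was not separable from the split in table total or from library-name prefix.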

How the results depend on the processing

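Of 139 counts of called vit bins recomputed under another setting, 132 stayed within 1.5 times the reported count (mostly 0 calls in both), 3 were lower and 4 higher. The vit median changed sign in 10 of the 139: for set-32 minus wild type in 3, for F20 repaired minus mutant in 2, F20 repaired minus never mutant in 2, hrde-1 mutant minus never mutant in 2 (−0.12 in both, without the wild type and over pairs sharing a prefix) and early repaired minus mutant in 1. Settings counted together for a comparison gave the same median from the same pairs of libraries, so the 10 are not separate checks. For the vit bins in the comparison of repair between set-32 and the other backgrounds, 33 of 36 by limma in the reported fit, the count was 18 of 37 with no filter on low bins and 0 of 36 with the table-total split as a term; it ranged from 15 to 31 bins when each background was left out in turn, lowest without set-32(ok1457). The table-total term of that fit rests on the met-2 set-25 F5 library alone. The cause of these differences was not tested. Other pseudocounts, rescaled or centred libraries, the higher filter, F20 alone and inner bins only left 25 to 33 bins called. Rescaling moved the median of all bins from −0.28 to 0.14, while that of the vit bins was 7.17 and 7.57. With pairs sharing a library-name prefix (chosen after seeing the data), the count in 4 comparisons with 0 calls became 33 of 36: early repaired and F20 repaired, each minus mutant and minus never mutant. The table-total term could not be fitted for hrde-1 mutant minus never mutant, where it coincides with background. Without the 5 libraries the early repaired comparisons with mutant and never mutant could not be fitted, since too few libraries remain. That of repair between backgrounds could not be fitted either, since both set-32 mutant libraries are among the 5. The fits pair libraries by background or state. Depth limits met-2 set-25 F5 most, where 3 reads are worth 18.99 RPKM; in the other 4 low libraries they are worth 7.38 to 12.8 RPKM, against 4.37 to 9.80 RPKM in the other 11.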
